A study of Mus musculus with 24 samples.

Results

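The expression of 9 genes of vitamin A (retinoid) handling was followed in the inguinal fat pad, a white adipose depot under the skin, of young mice. The genes were taken by symbol: Aldh1a1, Aldh1a2, Aldh1a3, Stra6, Rarb, Dhrs3, Crabp1, Crabp2 and Cyp26b1, out of 16118 genes in the deposited table, of which 16005 passed the filter on low counts, all 9 among them. Poly(A) RNA of 24 mice was sequenced, 1 library per animal, in 6 groups of 4. The groups were p21 males, p21 females, and at p28 males and females of each weaning arm, where p is the postnatal day. In the SW arm (standard weaning) pups left the mother at p21, and in the DW arm (delayed weaning) they stayed with her until sampling. The labels name no strain, allele, litter or cage, so the spread between animals may hold any of these. The series asks how fat is remodelled in each sex when breastfeeding is prolonged.

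Vitamin A reaches tissues as retinol bound to the carrier Rbp4, and in many cells the membrane protein Stra6 takes it up. Retinol is oxidised to retinal, which the reductase Dhrs3 turns back into retinol and which the Aldh1a dehydrogenases oxidise irreversibly to retinoic acid. Crabp1 and Crabp2 carry retinoic acid in the cytoplasm, nuclear receptors such as Rarb bind it and act on genes, and Cyp26b1 breaks it down. Dhrs3, Rarb, Stra6 and the Cyp26 enzymes are known to be induced by retinoic acid itself, and Aldh1a enzymes have been studied in fat as regulators of adipocyte formation and thermogenesis.

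Sequences upstream of 3 genes are shown because Rarb is a textbook retinoic acid target, Cyp26a1 is its counterpart among the breakdown enzymes, and Dhrs3 had the most calls of the 9. RefSeq (GRCm38.p6) held 13 promoter windows for 7 of the 9 genes, and Aldh1a3 and Crabp2 had no entry. Each window was searched on both strands for direct repeats of a half-site with a spacer of 1, 2 or 5 bases, the layout that retinoic acid receptors bind. The half-sites allowed were AGGTCA (the usual consensus), its known variant AGTTCA (present in the Rarb element), and a further pair of variants, which are GGGTCA (absent from both matches below) and, in the Rarb element again, GGTTCA (its upstream copy). Repeats with spacers of 1, 2 and 5 occurred in 0.222%, 0.268% and 0.0974% of 32851 promoter windows. Among the 9 genes only Rarb had a match, with a spacer of 5 bases at chr14:16575513-16575529, on the gene's own strand from 53 to 37 bases before the start. That start lies inside the annotated Rarb gene, which begins further upstream. Cyp26a1 had one of the same spacing at chr19:37697776-37697792, on the opposite strand. The allowed half-sites include both copies of the Rarb element, so the Rarb match followed from the choice of pattern and tests nothing. No match in the other windows says only that these letters are not there. The last 150 bases before the start are given 5′ to 3′ on the gene's strand, with a match and its spacer in capitals.
Rarb: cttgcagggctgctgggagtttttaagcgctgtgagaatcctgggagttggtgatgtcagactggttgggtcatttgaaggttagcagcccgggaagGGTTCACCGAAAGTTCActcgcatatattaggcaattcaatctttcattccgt
Cyp26a1: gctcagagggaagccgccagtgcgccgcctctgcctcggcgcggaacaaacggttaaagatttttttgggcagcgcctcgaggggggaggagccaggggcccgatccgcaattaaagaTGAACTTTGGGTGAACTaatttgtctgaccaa
Dhrs3: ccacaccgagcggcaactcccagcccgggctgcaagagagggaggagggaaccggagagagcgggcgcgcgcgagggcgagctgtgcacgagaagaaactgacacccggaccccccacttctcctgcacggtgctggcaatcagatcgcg

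Values are the authors' normalised read counts, and every one was a whole number of reads times a factor of its library. Recovered reads in the listed genes ranged from 57600711 to 302145813 per library. The shallowest library, p21 male 53, detected 14054 genes and SW male 84 detected 15497, the 2 lowest numbers of the 24. The GC dependence of a library, the correlation over genes of its deviations with transcript GC content, ran from -0.625 to 0.544. It was lowest in DW female 83 (-0.625), p21 male 37 (-0.578) and DW female 82 (-0.45), and mitochondrial shares were lowest in DW female 82 (13.21%), p21 male 38 (13.23%) and DW female 83 (13.72%). Mature adipocyte markers were high in every group, with mean log2(value + 1) scores from 9.79 to 10.3. Markers of mammary luminal epithelium, a tissue that grows within this depot in females, scored 0.456 to 0.759 in the male groups and 2.74 to 4.74 in the female groups, and skeletal muscle markers scored 2.26 to 7.74. Because whole tissue was sequenced, fewer cells of a type and less RNA per cell cannot be told apart.

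Comparing genes per kilobase of exon, Dhrs3 was the highest of the 9, at a mean of 39.95 normalised counts per kb over the 24 animals. Aldh1a1 followed at 11.53 per kb, Aldh1a3 at 3.853 and Cyp26b1 at 2.552. Aldh1a2 (0.6651 per kb) and Rarb (0.6146 per kb) lay close together and their ranges overlapped. Crabp2 (0.3527 per kb), Crabp1 (0.2547 per kb) and Stra6 (0.1358 per kb) were the lowest. The 3 lowest rest on few reads: 10 to 185 recovered reads per library for Stra6, 0 to 173 for Crabp2 and 0 to 71 for Crabp1. Crabp1 and Crabp2 had 0 reads in p21 male 53 and SW male 84, which allows up to 3 reads, or a normalised count of 0.0462 and 0.0420. These floors cover counting error only.

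**Figure D1:**
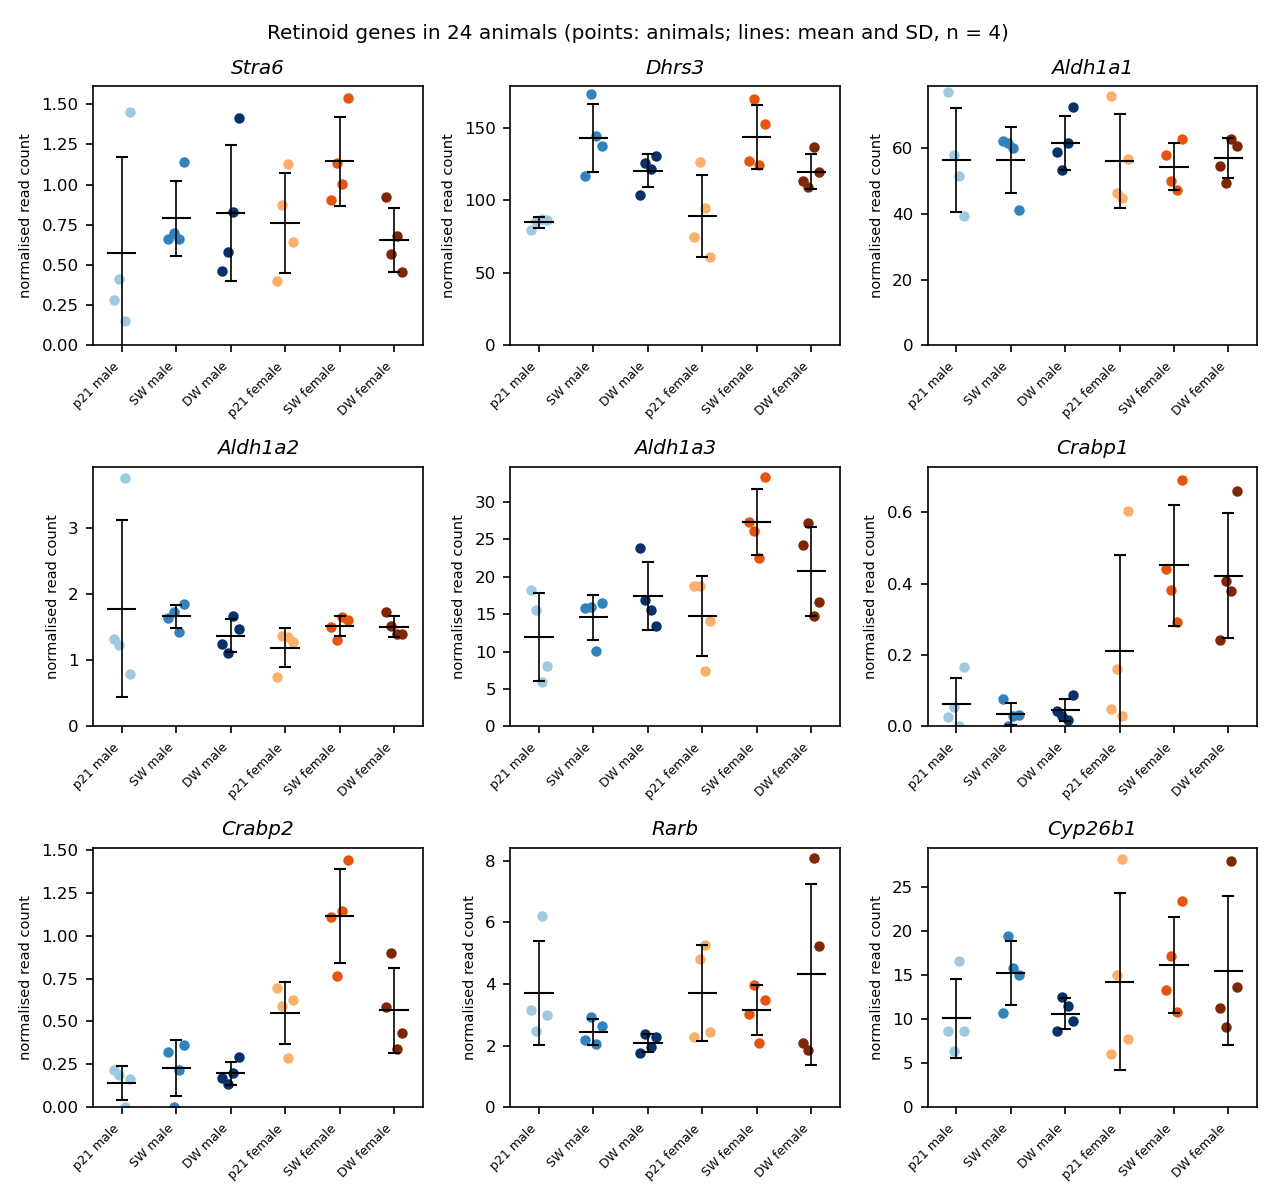
Normalised read count (vertical axes, linear from 0) of each of the 9 genes in the 6 groups; points are animals and bars are the mean and SD of 4 animals. Dhrs3 lies between 104 and 173 in all p28 animals, and Crabp2 in the SW females lies above all males.

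Delayed weaning was compared with standard weaning first, at the same age. None of the 9 genes was called by limma in either sex (Benjamini-Hochberg adjusted p under 0.05 over all genes), where 0.256% of all tested genes were called in males and 1.27% in females (204 genes, but 1996 without DW female 76, 871 without DW female 77 and 45 without DW female 82). At an unadjusted p under 0.05, 0 of the 9 passed in males and 1 in females, and edgeR and DESeq2 on the recovered reads also called 0 in both sexes. The medians of the 9 log2 changes were -0.025 in males and -0.128 in females, beside 0.004 and -0.025 over all genes. The unadjusted pass was Crabp2 in females, with 0.5819, 0.9005, 0.3400 and 0.4343 in DW and 1.107, 0.7664, 1.143 and 1.438 in SW animals. The groups overlapped by 1 pair of animals, and the difference was -0.44 ± 0.118 (SE) on the log2(value + 1) scale (limma adjusted p = 0.0683). It passed without DW female 77 (adjusted p = 0.0202), DW female 76 (0.0327) or SW female 74 (0.0461), and also without the 2 male libraries of fewest detected genes (0.0365). Without DW females 82 and 83, whose libraries stood apart, the difference was -0.28 (adjusted p = 0.97). The 8 mammary luminal markers had a median log2 change of -1.21 in the same comparison, of which Cldn7 and Cldn3 were called lower in DW females. The luminal score did not overlap between DW (3.28 to 4.28) and SW females (4.47 to 4.93), so a fit with it leaves little to compare them by. Such a fit, with the lymph node and muscle scores also as covariates, did not call Crabp2. Of 20 settings 4 called it, with changes from -0.968 to -0.258 over all 20. Within the animals numbered 73 to 80 the difference was -0.204 (2 DW, 3 SW), and within those numbered 81 to 87 it was -0.814 (2 DW, 1 SW). The test of whether the weaning difference itself differed between the sexes called 0 of the 9 by limma (0.0187% of all genes called), with 1 at an unadjusted p under 0.05, and 0 by edgeR and DESeq2.

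Dhrs3, the retinal reductase (ENSMUSG00000066026, chr4:144892827-144928209, plus strand, GRCm38), had the most calls of the 9 with age. In males it measured 79.56, 85.79, 87.41 and 86.67 at p21, then 117.2, 173.4, 144.2 and 137.8 at p28 SW. Every SW male was above every p21 male, and the p21 males lay within a narrow range. The rise was 0.74 ± 0.162 (SE) in log2, or 1.66-fold (limma adjusted p = 0.00535), and Dhrs3 was the only one of the 9 called in this comparison, where 11.9% of all genes were called. DW males had 104.1, 126.1, 121.6 and 130.6, again all above the p21 males, a log2 rise of 0.50 ± 0.162 (limma adjusted p = 0.0416). In that comparison 15.0% of all genes were called, and Dhrs3 was 1 of 9.

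In females Dhrs3 measured 74.56, 126.7, 94.63 and 61.11 at p21 and 127.6, 170.4, 124.5 and 152.8 at p28 SW. The p21 animals were more spread than the males, and p21 female 36 was above the lowest SW female. The log2 rise was 0.72 ± 0.162 (limma adjusted p = 0.00432). DW females had 113.5, 109.4, 136.9 and 120.0, and their difference from p21, 0.47 ± 0.162, had a limma adjusted p of 0.0605 and missed the threshold. It passed without p21 female 36 (0.65, adjusted p = 0.00716), and was 0.37 without DW females 82 and 83 (adjusted p = 0.278). The rises to SW in the 2 sexes differed by -0.012 in log2 (95% interval -0.486 to 0.463, limma adjusted p = 0.997). Dhrs3 in DW minus SW animals was -0.24 in males (95% interval -0.572 to 0.098) and -0.25 in females (-0.589 to 0.082), neither called.

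Several cell markers moved with age beside Dhrs3. Scores of macrophage markers were 4.21 and 4.05 at p21 against 4.60 to 4.74 at p28, and muscle scores in males were 2.26 at p21 and 7.45 to 7.74 at p28. In males the adipocyte score was 9.79 at p21 and 10.3 in both p28 groups. With the luminal, lymph node and muscle scores as covariates the Dhrs3 rise in SW males was 0.65 (limma adjusted p = 0.0837), and that in SW females stayed called. Over all genes this fit called 445 in SW males and 343 in SW females, beside 1901 and 1860 without the scores. Without p21 male 53 and SW male 84 the rise in SW males was 0.65 (adjusted p = 0.0414). The part of the macrophage and adipocyte scores was not tested. The call in DW males was lost without p21 male 53 and SW male 84 together (0.51, adjusted p = 0.0692) and without any 1 of p21 males 37, 38, 53 and 54 or DW males 80, 86 and 87 (adjusted p 0.065 to 0.116), with changes of 0.458 to 0.512. Animals of p21 carry lower ID numbers than all p28 animals, so age and any grouping that follows these numbers cannot be told apart.

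**Figure D2:**
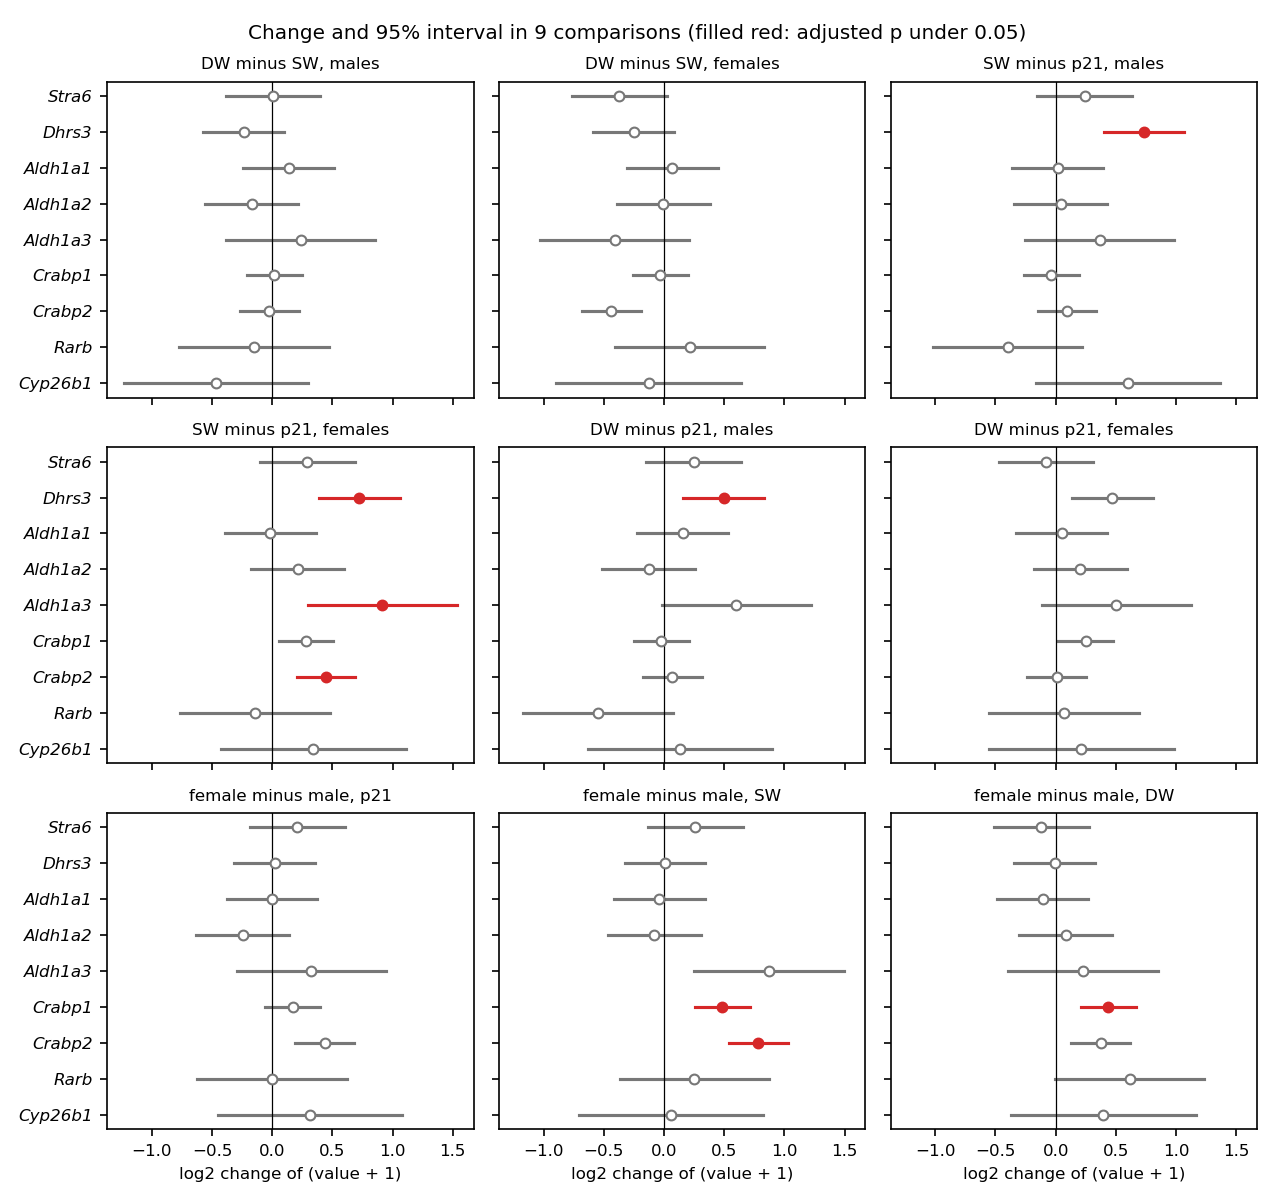
Log2 change of (value + 1) with its 95% interval for the 9 genes in 9 comparisons of 4 against 4 animals; filled red points are called by limma at an adjusted p under 0.05. Dhrs3 is called in 3 of 4 age comparisons (0.735, 0.723 and 0.498), and none of the 9 in the 2 weaning panels.

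Of the dehydrogenases that make retinoic acid, Aldh1a1 (ENSMUSG00000053279, chr19:20492715-20643465) was the most abundant and the steadiest. Its group means lay between 54.37 ± 7.107 (SD, n = 4, SW females) and 61.53 ± 8.124 (DW males), and no comparison called it. The 95% interval of the SW minus p21 difference in log2 was -0.360 to 0.394 in males and -0.396 to 0.359 in females. Aldh1a7, a close paralogue, had group means of 117.0 to 159.0, and reads the 2 genes share could have been split between them. Aldh1a2 (ENSMUSG00000013584, chr9:71215789-71296243) had group means of 1.192 to 1.779, with p21 male 53 highest at 3.759, and was not called.

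Aldh1a3 (ENSMUSG00000015134, chr7:66390890-66427517, minus strand) was the only one of the 3 with a call. Females at p21 had 18.70, 18.72, 7.392 and 14.07, and SW females had 27.28, 26.16, 22.54 and 33.29, with no overlap. The log2 rise was 0.91 ± 0.299 (limma adjusted p = 0.0496), close to the limit, and edgeR's quasi-likelihood test gave an adjusted p of 0.0802. It was called in 8 of 20 settings, and without p21 female 55 the change was 0.639 (adjusted p = 0.20). DW females had 24.25, 27.23, 14.79 and 16.68, the 2 lower values from the libraries that stood apart. SW males had 15.78, 15.92, 10.06 and 16.54, all below the SW females, and the sex difference of 0.87 missed the threshold (limma adjusted p = 0.158). The share of Aldh1a3 in the summed normalised counts per kb of exon of Aldh1a1, Aldh1a2 and Aldh1a3 was 33.5% ± 1.48 (SD, n = 4) in SW females. It was 17.0% to 26.9% on average in the other groups. Single DW females ran from 19.3% to 35.6%, a range that includes that of the SW females (32.2% to 35.0%).

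Counting Dhrs3, Aldh1a3 and Crabp2, 3 of the 9 genes rose in females from p21 to SW, where 11.6% of all genes were called. From p21 to DW none of the 9 passed in females by limma (12.1% of all genes called), with 2 at an unadjusted p under 0.05, and edgeR and DESeq2 also called 0. The difference between the sexes in the change from p21 to SW was 0.55 for Aldh1a3 (limma interaction, adjusted p = 0.871) and 0.35 for Crabp2 (adjusted p = 0.601). That test called 0 of the 9 by limma (1.03% of all genes called), with 1 at an unadjusted p under 0.05, and 0 by edgeR and DESeq2.

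Both cytoplasmic carriers of retinoic acid were low, and both were higher in females than males at SW. Crabp2 (ENSMUSG00000004885, chr3:87948666-87953376) was 0.325, 0 (SW male 84), 0.2183 and 0.3646 in SW males and 1.107, 0.7664, 1.143 and 1.438 in SW females. The lowest SW female lay above the highest SW male, and the log2(value + 1) difference was 0.79 ± 0.118 (limma adjusted p = 6.41e-05). This scale understates changes of low genes: on the recovered reads edgeR gave a log2 difference of 2.24, with an adjusted p of 0.0915. Without p21 male 53 and SW male 84, the libraries with 0 reads, limma gave 0.69 (adjusted p = 0.000341). At p21 the 4 females (0.2891 to 0.6961) also lay above the 4 males (0 to 0.22), a difference of 0.44 with a limma adjusted p of 0.184. That comparison called 0 of the 9 by limma (0.356% of all genes called), edgeR and DESeq2, with 1 at an unadjusted p under 0.05 by limma. The sex difference at DW was 0.37, which missed the threshold (limma adjusted p = 0.0954) and was 0.53 without DW females 82 and 83 (adjusted p = 0.048). In females Crabp2 rose from 0.5502 ± 0.1794 at p21 to 1.114 ± 0.2748 (SD, n = 4) at SW, by 0.45 ± 0.118 (SE) in log2 (limma adjusted p = 0.0142). The call was lost without p21 female 55 (0.067) or SW female 81 (0.0648), and with edgeR (adjusted p = 0.384).

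Crabp1 (ENSMUSG00000032291, chr9:54764748-54773110) had at most 0.1661 in any male. Its recovered reads per library were 0 to 8 in SW males and 2 to 10 in DW males. SW females had 40 to 71 reads and DW females 27 to 70. The gene thus passed the filter on low counts through the females, the sex in which it was higher, which limits the calls for sex below. SW females measured 0.4415, 0.3832, 0.2931 and 0.6898, all above the SW males (0 to 0.07648), by 0.48 ± 0.110 (SE) in log2(value + 1) (limma adjusted p = 0.00844). On the recovered reads edgeR gave log2 differences of 3.62 at SW (adjusted p = 0.0272) and 3.25 at DW (adjusted p = 0.0519). DW females measured 0.2417, 0.4086, 0.3795 and 0.6609 against 0.01888 to 0.08835 in DW males, by 0.44 ± 0.110 (limma adjusted p = 0.0327). Crabp1 and Crabp2 were the 2 genes of the 9 called at SW (3.54% of all genes called), and Crabp1 the 1 called at DW (2.46%). At p21, 3 of 4 females had 0.02891 to 0.1598, within the male range of 0 to 0.1661, and p21 female 56 had 0.605. Without SW female 81 the SW difference had an adjusted p of 0.051. The DW call was lost without any 1 of DW males 79, 80, 86 and 87 or DW females 82 and 83, with changes of 0.361 to 0.458 and adjusted p from 0.0614 to 0.137. Without both of these females it was 0.34 (adjusted p = 0.353), and without p21 male 53 and SW male 84 the SW difference was 0.47 (adjusted p = 0.0319).

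Mammary luminal markers differed in the same comparisons: 6, 8 and 7 of 8 were called higher in females at p21, SW and DW. In females 7 of 8 rose from p21 to SW. The luminal score was 2.01 to 3.44 at p21, 4.47 to 4.93 at SW and 3.28 to 4.28 at DW in females, and 0.054 to 2.34 in males, with Csn3, Krt8, Cldn7 and Tmprss2 at 0 in some male libraries. Males and females hardly overlapped in this score, so a fit with the luminal, lymph node and muscle scores as covariates leaves little to compare the sexes by. In that fit the sex difference at SW was 0.31 for Crabp2 (limma adjusted p = 0.845) and 0.13 for Crabp1 (0.908), and at DW 0.16 for Crabp1 (0.731). The rise from p21 to SW in females was then 0.14 for Crabp2 (0.766) and 0.55 for Aldh1a3 (0.565). The score did not overlap between p21 and SW females either, so the fit leaves little to compare these ages by. Over all genes it called 343 for this change, beside 1860 without the scores. Across the 12 females, centred on their groups, Crabp2 and the luminal score had r = 0.709 (permutation p = 0.016) and rho = 0.72 (p = 0.013). The Benjamini-Hochberg p over 54 relations was 0.11 for r and 0.088 for rho. Without the 2 animals farthest in score r was 0.672. With the same score Aldh1a3 had r = 0.694 (permutation p = 0.066), Crabp1 0.376 (p = 0.37) and Rarb -0.68 (p = 0.068). Leaving out the DW females whose libraries stood apart, r over 10 females was 0.561 for Crabp2 and 0.548 for Aldh1a3. It was then 0.779 for Crabp1 and -0.403 for Rarb.

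**Figure D3:**
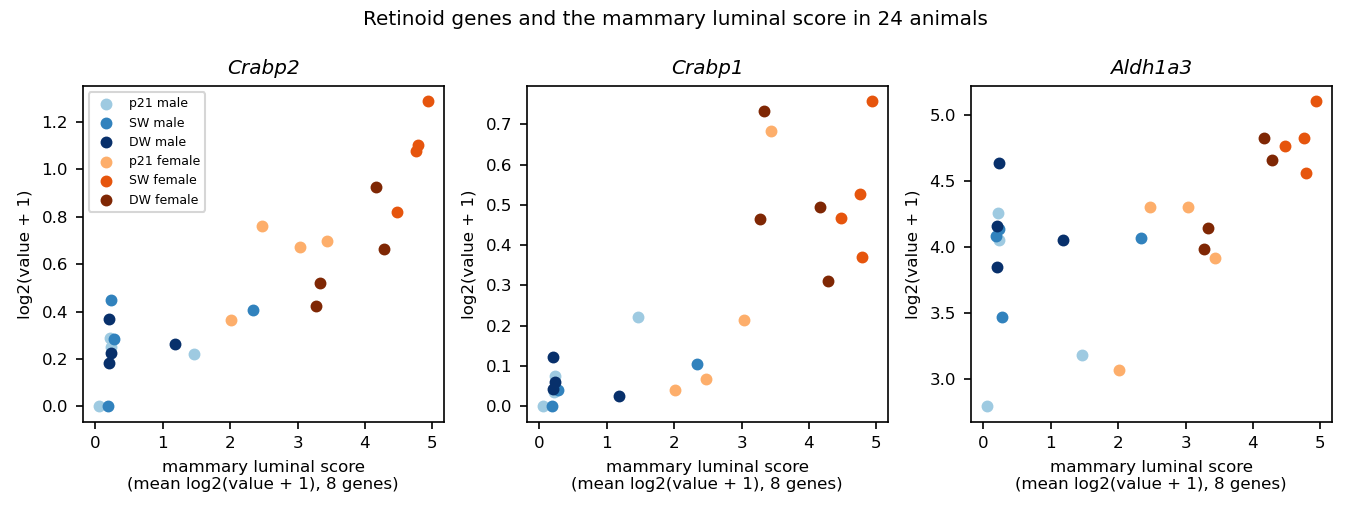
Log2(value + 1) of Crabp2, Crabp1 and Aldh1a3 (vertical) against the mammary luminal score, the mean log2(value + 1) of 8 markers (horizontal), in 24 animals coloured by group. Females lie at scores of 2.01 and above, males at 2.34 and below, and the SW females hold the highest scores, 4.47 to 4.93.

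Stra6 (ENSMUSG00000032327, chr9:58063788-58153996), the retinol uptake protein, had group means from 0.5761 ± 0.5942 (SD, n = 4) in p21 males to 1.143 ± 0.2776 in SW females. The p21 males ran from 0.1541 to 1.453, almost the whole range of the 24 animals, and no comparison called the gene. Its DW minus SW difference in females was -0.37 in log2(value + 1) (95% interval -0.765 to 0.022). The means were 0.6557 in DW and 1.143 in SW females, and this scale understates changes of so low a gene.

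Rarb (ENSMUSG00000017491, chr14:16430839-16819156, minus strand), the retinoic acid receptor beta, and Cyp26b1 (ENSMUSG00000063415, chr6:84571414-84593908, minus strand), the breakdown enzyme, were called in no comparison but varied widely between animals of a group. Rarb was 2.104, 1.846, 8.081 and 5.240 in DW females 76, 77, 82 and 83, and Cyp26b1 was 11.33, 9.111, 27.93 and 13.68 in the same animals. The p21 females 30, 36, 55 and 56 had 2.296, 4.804, 5.272 and 2.438 of Rarb and 6.113, 15.01, 28.24 and 7.783 of Cyp26b1. In p21 males, animal 53 was highest in both, with 6.209 and 16.64. The same animals were thus high in both genes. All DW males (1.762 to 2.393 of Rarb) lay below all p21 males (2.485 to 6.209), but the difference of -0.55 missed the threshold (limma adjusted p = 0.223).

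The covariation of the 9 genes within groups was examined after these values were seen, as part of 54 relations: 36 pairs of the 9 genes, each gene against the GC dependence of the library, and each against the luminal score in females. Values were log2(value + 1) minus the group mean, with 100000 permutations within groups. Rarb and Cyp26b1 had r = 0.855 and rho = 0.887 over 24 animals (Benjamini-Hochberg p = 0.00054 and 0.0016), with r = 0.796 without the 2 animals farthest in Rarb. Rarb and Dhrs3 had r = 0.612 and rho = 0.707 (Benjamini-Hochberg p = 0.0086 and 0.0052), with r = 0.648 without the 2 farthest. Rarb and Crabp2 went in opposite directions, with r = -0.668 and rho = -0.562 (Benjamini-Hochberg p = 0.027 and 0.088), and r = -0.585 without the 2 farthest. Aldh1a1 and the GC dependence of the library had r = -0.586 and rho = -0.559 (Benjamini-Hochberg p = 0.027 and 0.077), and r = -0.521 without the 2 farthest.

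These 4 were the only relations of the 54 with a Benjamini-Hochberg p for r under 0.05. Dhrs3 and Cyp26b1 passed by rho alone (r = 0.651, rho = 0.83, Benjamini-Hochberg p = 0.093 and 0.003). Several animals at the upper end belong to libraries that stood apart. Without p21 male 53, SW male 84 and DW females 82 and 83, r over the other 20 animals was 0.871 for Rarb with Cyp26b1, 0.781 for Rarb with Dhrs3, -0.437 for Rarb with Crabp2 and -0.6 for Aldh1a1 with GC dependence. With p21 male 37 left out as well, r over 19 animals was 0.871, 0.803, -0.451 and -0.447 in the same order.

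**Figure D4:**
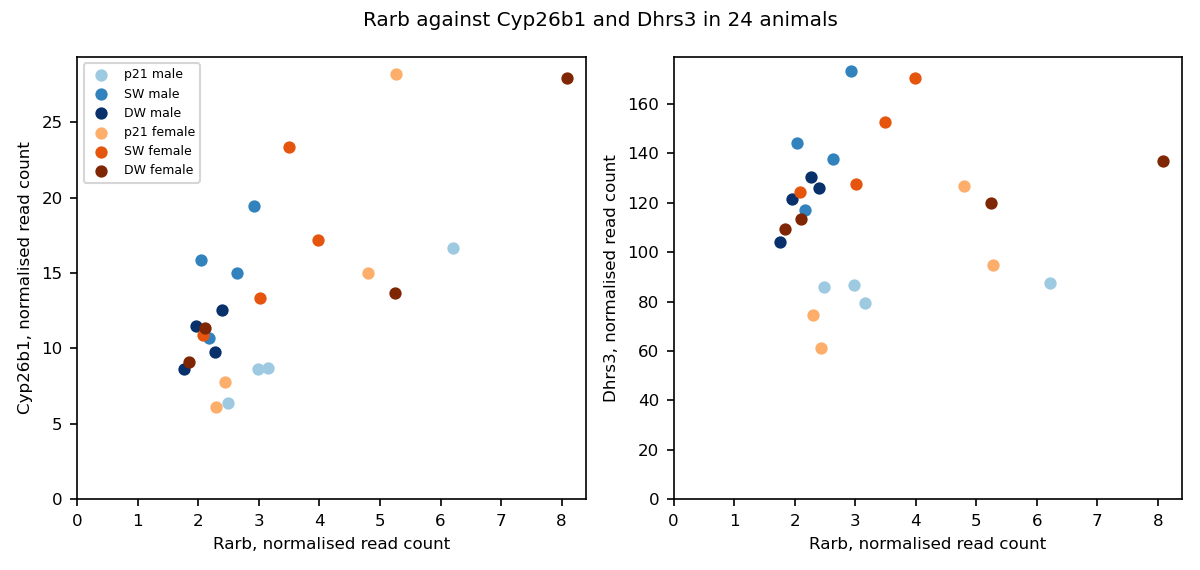
Normalised read counts of Rarb (horizontal) against Cyp26b1 (left) and Dhrs3 (right) in 24 animals, coloured by group, all axes linear from 0. Animals high in Rarb within a group were high in Cyp26b1 (group-centred r = 0.855 on log2 values), and the p21 animals sit lower in Dhrs3 than most p28 animals.

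The genes most like each of the 9 were taken over the 24 animals from 13071 other genes, by the Pearson correlation of group-centred log2 values, as a description. The libraries that stood apart were kept in. Among them p21 male 53 had the highest Aldh1a2 (3.759) and DW female 82 the highest Rarb (8.081), and their weight in these values was not tested. Aldh1a3 was closest to Ltbp1 (0.914), Cadm3 (0.906) and Pamr1 (0.894). Crabp2 was closest to Ppl (0.81), which encodes the epithelial junction protein periplakin, to Epha1 (0.808) and to Ppp1r26 (0.794). Dhrs3 was closest to Gstm6 (0.765), and Rarb to Cenpl (0.881) and Elp2 (0.87). Aldh1a1 was closest to Acadsb (0.865), an enzyme of branched-chain amino acid breakdown, and Aldh1a2 to Il12a (0.896). Crabp1 was closest to Dmbt1 (0.805), Stra6 to Helb (0.747) and Cyp26b1 to Slc2a9 (0.766).

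The rest of the vitamin A pathway was followed in 47 further genes. By limma none was called for weaning in either sex, with 4 in males and 8 in females at an unadjusted p under 0.05. EdgeR and DESeq2 called 0 in both sexes. With age, 7 rose in males and 3 in females from p21 to SW, and 13 rose in males and 4 rose and 1 fell in females to DW. Over all genes 11.9%, 11.6%, 15.0% and 12.1% were called in these 4 comparisons, so the counts in SW males and DW females lie near the share over all genes, that in SW females below it and that in DW males above it. With the luminal, lymph node and muscle scores as covariates 2 of the 7 in SW males and 4 of the 13 in DW males stayed called. Over all genes that fit called 445 and 639 in these comparisons, beside 1901 and 2395 without the scores. Without DW females 82 and 83, 2 of the 5 in DW females stayed called. The medians of the 47 changes were 0.267, 0.050, 0.219 and -0.056, beside 0.015, 0.012, 0.023 and 0 over all genes. The 2 sets of age comparisons share the p21 animals. Between the sexes 0 of the 47 were called by limma at p21 (10 at an unadjusted p under 0.05) and 0 at SW (2 at an unadjusted p under 0.05), and edgeR and DESeq2 also called 0 at both. At DW limma called 4 lower in females than males (2.46% of all genes called), DESeq2 also 4 and edgeR 0 (10 at an unadjusted p under 0.05).

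Among carriers and uptake genes, Rbp4, the secreted retinol carrier that fat also makes, rose in all 4 age comparisons. It measured 112.2 ± 13.47 (SD, n = 4) in p21 males, 176.1 ± 34.25 in SW and 185.6 ± 12.01 in DW males, and 112.9 ± 15.21, 210.2 ± 28.06 and 198.6 ± 24.48 in females. In each of the 4 comparisons every p28 animal lay above every p21 animal of its sex, and the log2 rises were 0.63 and 0.73 in males and 0.89 and 0.81 in females (limma adjusted p 0.000122 to 0.00465).

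Rbp7, an intracellular retinol carrier, rose in males from 24.53 ± 6.402 to 58.16 ± 21.25 at SW and 78.23 ± 10.74 at DW (log2 1.17 and 1.66, limma adjusted p = 0.00102 and 4.65e-05), and in females to DW (0.78, adjusted p = 0.0169). In both sexes every DW animal lay above every p21 animal. The change from p21 to SW was 0.32 in females (adjusted p = 0.365), and the difference between the sexes in that change did not pass (-0.85, limma interaction, adjusted p = 0.268).

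The hydrolases Ces1d and Ces1f and the lipase Mgll rose in SW males (0.80, 1.22 and 0.77) and DW males (0.76, 1.07 and 0.57), and of the 8 storage and release genes only Ces1d passed in females, at DW (0.45, or 0.26 without animals 82 and 83, not called). The test of a sex difference in the change from p21 to SW called 0 of the 47 by limma (9 at an unadjusted p under 0.05), 0 by edgeR and 1 by DESeq2. Of 6 mature adipocyte markers, Adipoq and Cidec also rose in SW males (0.82 and 1.22) and DW males (0.83 and 1.00), and neither was called in females. Pparg of the same markers was called lower in SW females than in p21 females. Lipe, another of them and also a storage and release gene, was called lower in females than males at DW. The adipocyte score was 9.79 in p21 males and 10.3 in SW and DW males, against 10.1, 10.1 and 9.93 in females, and its part in these changes was not tested. Retsat, which saturates retinol, rose in SW and DW males (0.80 and 0.73). Bco2, a carotenoid-cleaving enzyme, rose in log2(value + 1) in SW and DW females (0.58 and 0.63) and in DW males (0.39). This scale understates changes of so low a gene, whose means were 0.9937 in p21, 1.982 in SW and 2.083 in DW females. In males they were 1.378 at p21 and 2.101 at DW. Of 10 nuclear receptors and partners, Rxra, Ncor1 and Nrip1 rose in DW males (0.50, 0.52 and 0.90) and by limma were lower in females than males at DW (-0.52, -0.57 and -0.64, adjusted p 0.0351 to 0.0497). EdgeR called none of the 3 for sex at DW, and without DW females 82 and 83 the differences were -0.26 for Rxra and -0.19 for Ncor1, neither called, and -0.84 for Nrip1 (limma adjusted p = 0.0169). Without p21 male 53 and SW male 84 the rise of Ncor1 in DW males was 0.46 (adjusted p = 0.0832). The breakdown enzyme Cyp26a1 stayed between 0 and 0.17 in the 24 animals.

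**Figure D5:**
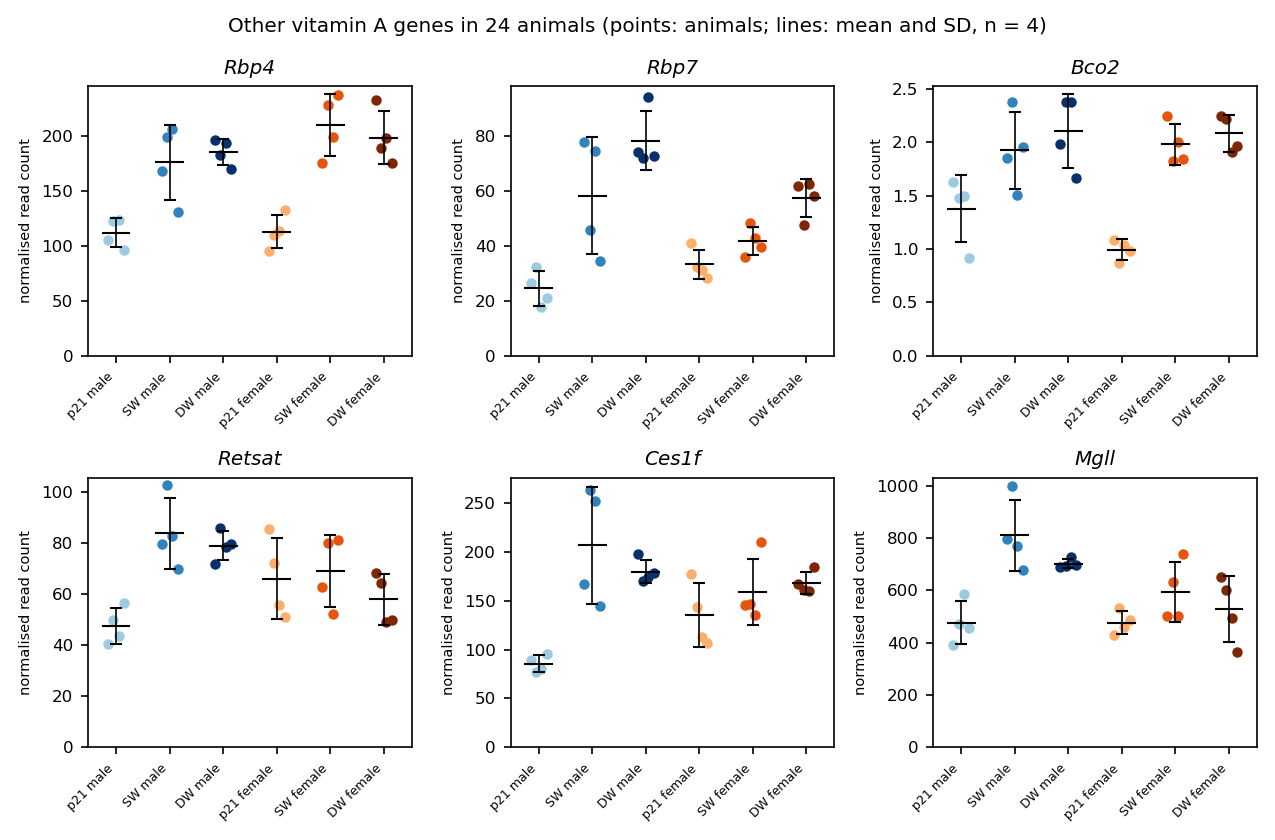
Normalised read count (vertical axes, linear from 0) of 6 further vitamin A genes in the 6 groups; points are animals and bars are the mean and SD of 4 animals. Rbp4 is higher at p28 than at p21 in both sexes, and Rbp7, Ces1f, Mgll and Retsat are higher at p28 than at p21 in males.

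Other retinoic acid targets gave no single direction. Of 12 such genes, 2 rose in SW males, 1 rose and 1 fell in SW females, 3 rose and 2 fell in DW males and 1 fell in DW females, where 11.9%, 11.6%, 15.0% and 12.1% of all genes were called. Cyp26a1, Lrat, Rarg and Nrip1 are also on the pathway list above. Nrip1, 1 of the 3 that rose in DW males, is thus counted in both lists. Tgm2, a transglutaminase, rose in SW males (0.68), SW females (0.53) and DW males (0.91), and Hoxa4 fell in SW females (-0.48), DW males (-0.47) and DW females (-0.60, or -0.44 with an adjusted p of 0.0698 without animals 82 and 83). Pck1, the gluconeogenic and glyceroneogenic carboxykinase that other signals also control, rose in males (1.42 and 1.44). Ucp1, the uncoupling protein of brown and beige adipocytes, fell in DW males (-2.02, or -1.76 with an adjusted p of 0.0815 without p21 male 53 and SW male 84).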

How the data were processed

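Poly(A) RNA-seq of 24 animals was used. Groups follow the age, sex and group labels, also where titles of p21 libraries read p28. The authors deposited a normalised signal per gene (read counts divided by a factor of each library), and all values (100%) were whole multiples of 1 read within 0.001. The submitters' processing notes name fastp, HISAT2, featureCounts, DESeq2 1.38.3 and mm10, with no role given. Strand setting and annotation are not given in the sources used here. The authors also deposited log2 fold changes and p-values, which are not used here. The p-values are headed as adjusted, but at least 16100 of 16108 per comparison are distinct, where Benjamini-Hochberg adjustment gives ties. From 16208 rows, 90 repeated rows were left out, and 12 value columns were not used. Deposited gene positions were not printed, since 2.23% of 16095 starts equal GRCm38. Positions are those of GENCODE M21.

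Limma 3.58.1 (R 4.3.3, variance trend) was fitted to log2(value + 1) of 16005 genes (minimum count 10) with 6 groups and 18 residual degrees of freedom. Limma changes given in log2 are on this scale, which understates changes of low genes. Benjamini-Hochberg adjustment was over all genes. EdgeR 4.0.16 (quasi-likelihood, TMM) and DESeq2 1.42.0 on recovered reads were alternatives. EdgeR called 29 and 71 genes for weaning in males and females, 1801 and 1472 for p21 to SW, and 422 for sex at SW. Other alternatives were filters, the pseudocount, 3 tissue scores (mammary luminal, lymph node, muscle) as covariates and leaving out animals.

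The 9 genes, the pathway and marker lists and the naming rule were chosen with earlier results of these data known. The rule covers all 9 genes, pathway or target genes that were called, core carriers and receptors, and the 3 genes most like each. Not all of these were described above. Pathway genes called but not described were Cd36, Lrp1 and Stra6l (higher in DW than p21 males) and Dhrs7b (higher in SW than p21 animals of both sexes). Scarb1 was the gene called lower in DW than p21 females. Ttr, Rbp2, Akr1b7, Cyp26c1, Hoxb1, Cdx1, Krt1 and Wt1 were not used here. Some further genes of the pathway list are not reported here. Nothing in the labels says that animals of a group came from separate litters.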

Additional observations from a re-analysis of the deposited data

Results flagged for a closer look

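A sample standing far from the other 3 of its group was found in 8 of 120 groups tested, where chance gives about 6.0. In SW males, animal 124 had an Aldh1a1 of 41.22, with the others at 60.17 to 62.24, and a Stra6 of 1.141, with the others at 0.6596 to 0.7000. SW male 85, the most deeply sequenced library, had an Aldh1a3 of 10.06, with the others at 15.78 to 16.54. In p21 females, animal 30 had an Aldh1a2 of 0.7521 (others 1.283 to 1.373) and a Rara of 18.91 (others 24.86 to 26.2). The p21 female 36 had a Cyp26a1 of 0.141 (others 0.032 to 0.03855), near the limit of detection. DW male 86 had an Rbp7 of 94.29 (others 72.05 to 73.99) and a Lrat of 1.878 (others 0.7275 to 0.8394).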

How the results depend on the processing

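No paired analysis was possible because no animal number is shared between groups. The number of the 9 genes called was compared across settings. With edgeR (TMM) it was 1 for age to SW in females (2 with DESeq2, beside 3 by limma), 0 for age to DW in males, 1 for sex at SW and 0 for sex at DW. With edgeR and DESeq2 size factors it was 1 for age to SW in females, 1 for sex at SW and 0 for sex at DW. Over all genes edgeR (TMM) called 1472 and 2283 for these age comparisons, and 422 and 382 for sex at SW and DW. With DESeq2 size factors edgeR called 1434, 425 and 383 in the comparisons given for it. With tissue scores as covariates the number of the 9 was 0 for age to SW in males and 1 in females. For age to DW it was 0 in males and 1 in females, and for sex 0 at SW and at DW. Over all genes this fit called 445, 343, 639 and 2146 for age in the same order, and 10 and 5 for sex. Without the scores limma called 1901, 1860, 2395 and 1938 for age, and 567 and 394 for sex. A pseudocount of 0.1 gave 1 for age to SW in females (1698 of all genes called). Requiring a value of 1 in 4 samples gave 0 for sex at SW and at DW, since Crabp1 and Crabp2 were then not tested. Without p21 male 53 and SW male 84 the number of the 9 was 1 for weaning in females (291 of all genes called) and 0 for age to DW in males (1450). With the GC dependence of each library as a covariate, chosen after the data were seen, it was 1 for age to DW in females and 2 for sex at DW. Over all genes that fit called 2725 and 951 in these comparisons. Leaving out DW females 82 and 83 was also chosen then. Without 1 animal at a time the count was 0 to 1 for weaning in females, 1 for age to SW in males, 1 to 3 in females, 0 to 1 for age to DW in each sex, 0 to 1 for sex at p21, 1 to 2 at SW, 0 to 1 at DW, and 0 for weaning in males and both interactions.

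Of the called genes, Dhrs3 was called in 20 of 20 settings for SW females and 19 of 20 for SW males, but 10 of 20 for DW males. Aldh1a3 in SW females was called in 8 of 20 and Crabp2 in 12 of 19. For sex, Crabp1 was called in 17 of 19 at SW and 9 of 19 at DW, and Crabp2 in 16 of 19 at SW. Most of these settings share the filter that Crabp1 passed through the females, so its tallies do not lift that limit. The setting with a value of 1 in 4 samples did not test Crabp1 or Crabp2 and is not counted for them. No change of the called genes reversed its sign. Over all genes, calls for weaning in females were 204, with 71 by edgeR, 295 by DESeq2, 1 when the fit held just the 2 groups compared, 11 with tissue scores and 7 without DW females 82 and 83. Leaving out 1 animal gave 45 (DW female 82) to 1996 (DW female 76), with 871 without DW female 77. The same step gave 1071 to 3123 calls for age to DW in females (1938 with all animals) and 263 to 1829 for sex at DW (394). The cause was not tested. Depth limits Crabp1, Crabp2 and Stra6, whose reads number from 0 to 185 per library.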
